A study of Mus musculus with 16 samples.

Results

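The scaffold proteins of the postsynaptic density are described here through the genes Shank1, Shank2, Shank3, Homer2, Homer3, Dlgap1, Dlgap2, Dlgap3, Dlgap4 and Dlg4 in the dorsal hippocampus of mice trained in active place avoidance (APA). The genes were taken by symbol from a list of members of the Shank, Homer, Dlgap and Dlg families, which was drawn up with earlier results of these data known. The paralogs Homer1, Dlg1, Dlg2 and Dlg3 are not in the set and are given beside it. All 10 were found among the 24972 genes of the deposited files, and all 10 passed the filter on low values in every comparison. Bulk RNA-seq libraries came from the dentate gyrus (DG), CA3 and CA1 of ArcCreERT2::eYFPflx mice, a line in which the Arc promoter drives a tamoxifen-inducible Cre recombinase that switches on eYFP, and every animal of both groups carried these alleles. Trained mice had learned to avoid a shock zone on a rotating arena, untrained mice were placed in the same arena with the shock off, and tissue was taken an hour after a retention test without shock. Animals were 3 to 4 months old. CA1 was represented by 3 trained and 3 untrained libraries, CA3 by 3 trained and 2 untrained, and DG by 3 trained and 2 untrained, so that 16 libraries were compared. By its label each library held dissected tissue of 1 subregion of 1 animal, with every cell type and not the eYFP cells alone.

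The postsynaptic density is the protein meshwork under the membrane of an excitatory synapse. Its layers are linked end to end. PSD-95, the product of Dlg4, binds glutamate receptors at the membrane, the SAPAP proteins made from Dlgap1 to Dlgap4 bind PSD-95, the Shank proteins bind the SAPAPs, and the Homer proteins join the Shanks to metabotropic glutamate receptors and to the calcium release channels of the endoplasmic reticulum. Transcripts of several of these genes, among them those of Shank and Dlgap genes, are known to be carried into dendrites. In bulk tissue, fewer cells of one type and less RNA per cell cannot be told apart.

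The promoters of 5 of the genes are shown because the RNA of Shank3, Homer3, Dlgap3 and Dlgap4 rose in trained CA1 and that of Homer2 fell. RefSeq windows on the build GRCm38.p6, from 250 bases before to 50 after an annotated start, matched 7 of the 10 genes in 11 windows. Windows of Shank1, Shank2 and Dlgap2 were not analysed here. Capitals mark matches, on either strand, to the GC box GGGCGG, to GCGNGGGCG, the letters bound by EGR factors, or to TGACG, the half-site of the cAMP response element. GC boxes and EGR letters can overlap, and a shared stretch is then capitalised once.
Shank3, chr15:89499358-89499657, plus strand: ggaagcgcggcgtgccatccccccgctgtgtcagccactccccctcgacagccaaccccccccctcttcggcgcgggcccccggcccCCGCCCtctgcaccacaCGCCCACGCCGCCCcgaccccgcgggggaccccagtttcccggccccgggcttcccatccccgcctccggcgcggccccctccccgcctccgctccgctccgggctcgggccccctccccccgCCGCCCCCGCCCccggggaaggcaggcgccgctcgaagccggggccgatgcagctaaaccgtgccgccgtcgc
Homer3, chr8:70282749-70283048, plus strand: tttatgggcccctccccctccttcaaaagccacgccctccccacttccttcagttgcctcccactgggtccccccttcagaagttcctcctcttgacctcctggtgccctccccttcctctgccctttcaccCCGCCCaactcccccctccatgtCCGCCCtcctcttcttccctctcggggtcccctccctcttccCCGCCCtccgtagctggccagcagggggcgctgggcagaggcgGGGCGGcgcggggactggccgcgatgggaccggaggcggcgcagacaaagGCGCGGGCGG
Dlgap4, chr2:156720715-156721014, plus strand: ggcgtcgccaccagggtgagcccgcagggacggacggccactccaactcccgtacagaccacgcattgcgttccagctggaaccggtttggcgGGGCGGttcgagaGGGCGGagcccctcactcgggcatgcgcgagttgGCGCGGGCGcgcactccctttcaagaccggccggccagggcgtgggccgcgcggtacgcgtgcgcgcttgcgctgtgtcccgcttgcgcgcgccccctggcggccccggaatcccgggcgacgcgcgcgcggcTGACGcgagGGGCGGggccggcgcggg
Dlgap3, chr4:127172630-127172929, plus strand: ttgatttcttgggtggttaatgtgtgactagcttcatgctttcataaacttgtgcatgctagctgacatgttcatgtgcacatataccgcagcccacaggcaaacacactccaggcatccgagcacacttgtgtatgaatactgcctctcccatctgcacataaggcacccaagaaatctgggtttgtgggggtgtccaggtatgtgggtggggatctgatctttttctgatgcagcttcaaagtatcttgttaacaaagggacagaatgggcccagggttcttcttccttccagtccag
Homer2, chr7:81706876-81707175, minus strand: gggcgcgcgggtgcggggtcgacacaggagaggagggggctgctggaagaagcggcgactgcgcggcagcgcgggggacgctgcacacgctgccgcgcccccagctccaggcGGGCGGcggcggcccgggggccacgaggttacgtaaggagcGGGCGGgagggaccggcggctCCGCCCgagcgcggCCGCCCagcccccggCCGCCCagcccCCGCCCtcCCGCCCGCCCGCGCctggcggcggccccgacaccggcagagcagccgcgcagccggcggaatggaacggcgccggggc

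The windows of Shank3, Homer3, Dlgap4 and Homer2 were rich in GC, at 81.0, 69.7, 76.3 and 82.3%, against a median of 52.7% over all 32851 promoter windows. Each of these is the first window listed for its gene. They held 40, 19, 50 and 49 CpG dinucleotides, against a median of 7. The Dlgap3 window differed from these, with 47.7% GC, 2 CpG and no match to any motif searched. GC boxes numbered 4 in Shank3, 5 in Homer3, 3 in Dlgap4 and 8 in Homer2, and 35.7% of all windows held at least 1. The EGR letters were found 2 times in Shank3 and 1 time each in Homer3, Dlgap4 and Homer2, against 5.55% of all windows. The CRE half-site, present in 20.8% of all windows, was found among these 5 in Dlgap4 alone. The E-box CACGTG (7.15% of all windows) and the MEF2 site (3.69%) were in none of the 5. A second Homer2 window, from an inner start, had 52.3% GC, 3 CpG and no match. The 2 windows of Dlgap1 and the 3 of Dlg4, genes without a call for training, had 46.3 to 69.0% GC and no EGR letters, and 1 of the Dlg4 windows held 2 GC boxes and 1 CRE half-site. The windows of Dlgap4 and Dlgap3 lie at inner starts, downstream of the gene starts annotated at 156613705 and 127169204. The same letters were thus in windows of 3 genes that rose in CA1 and of Homer2, which fell, and these matches are a description of the windows and not evidence of binding.

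Libraries differed in ways that bear on every training comparison below. Xist, the transcript that silences one X chromosome, lay between 7601 and 19592 in all 9 trained libraries and between 25.5 and 52.4 in 6 of the 7 untrained ones. Untrained CA3 replicate 1 had 10587 for Xist together with 201 for the Y-linked Ddx3y, and trained DG replicate 3 had 7601 together with 255. Lower levels of Ddx3y stood beside high Xist in trained CA1 replicates 1 (70.9) and 3 (101) and trained CA3 replicate 3 (92.9), against 1.66 to 12.9 in the other 5 trained libraries. X- and Y-linked transcripts were thus present at once in 5 libraries, although each label names 1 animal. Results over all subregions are given without the first pair and without all 5, and those within a subregion without each library in turn. The sexes that the study gives for its animals were mixed in both groups, whereas the transcripts split almost wholly by training, so training and sex-linked expression cannot be told apart here. The number of genes listed at 0 also fell into 2 ranges, from 7567 to 9759 in the trained CA1 libraries, the untrained DG libraries and trained CA3 replicates 1 and 2, and from 3124 to 5944 in the other 9. Markers of the subregions did not follow the labels closely, and Prox1, which marks dentate granule cells, lay between 2690 and 4786 in all 16 libraries without being higher in DG.

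**Figure D1:**
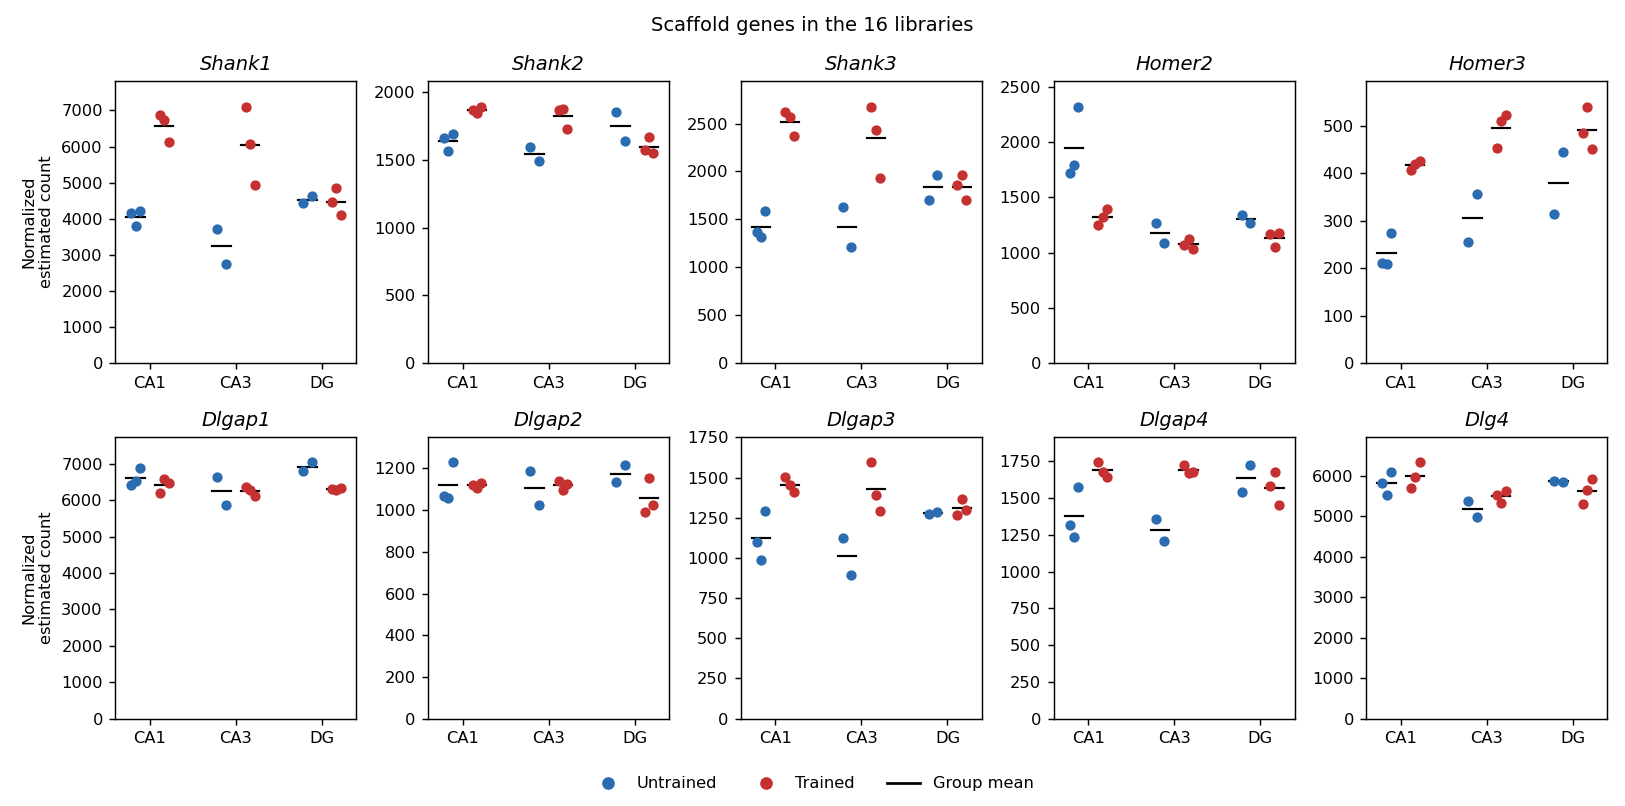
Normalized estimated count (vertical axis, from 0) of the 10 scaffold genes in each of the 16 libraries by subregion, blue for untrained and red for trained, with black bars at group means. Shank1, Shank2, Shank3, Homer3, Dlgap3 and Dlgap4 separate by training in CA1 and CA3, and of these only Dlgap4 passed the test in CA3. Homer2 is high in untrained CA1. The groups of Dlgap2 and Dlg4 overlap in every subregion, and Dlgap1 is lower in every trained DG library without a call.

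The levels themselves were compared per kilobase of the longest coding transcript, as the median over the 16 libraries. Dlg4 and Dlgap1 led with 898 and 892 normalized estimated counts per kilobase, and Shank1 followed with 463. Dlgap4 (333), Dlgap3 (307), Shank3 (258), Dlgap2 (249) and Shank2 (187) formed a middle range. Homer3 (162) and Homer2 (115) were lowest. The value of Homer2 depends on a longest transcript of 10982 bases, which may not be the one used in this tissue. In untrained CA1 Homer2 had 177 per kilobase and Homer3 88.6, and in trained CA3 the order was turned, at 98.2 and 190.

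The comparison of trained with untrained mice asks which transcripts differed between mice that had learned to avoid the shock zone and mice that had not. Both groups had the retention test, and only trained mice had met the shock. Recall, learning and the shocks themselves cannot be told apart here. In CA1, 7 of the 10 scaffold genes passed the test (limma on log2(value + 2), Benjamini-Hochberg adjusted p under 0.05), with 6 higher in trained mice and 1 lower. Over all 13588 genes tested in CA1, 5.23% passed, 3.53% higher and 1.70% lower. The median log2 fold change of the 10 was 0.25, and that of all genes was 0.00. In the same 7 genes every trained library lay on one side of every untrained one, which was true of 24.0% of all genes tested. Without 1 CA1 library, Shank1, Shank3 and Homer3 passed in each of the 6 cases. The count fell to 4 without untrained replicate 1 or trained replicate 3 and to 3 without trained replicate 1 or 2, with Dlgap4 and Shank2 called only when untrained replicate 3 was the library left out. Calls over all genes moved as well, from 710 to between 329 (without untrained replicate 1) and 865 (without untrained replicate 3). In CA3, 1 of the 10 passed, against 0.852% of 13848 genes, and in DG none did, against 3.39% of 13935.

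The Shank genes encode the large scaffolds of the deep layer of the density. Shank1 (chromosome 7, 44310253 to 44360572, GRCm38) had normalized estimated counts of 4166, 3801 and 4214 in untrained and 6875, 6735 and 6117 in trained CA1. The lowest trained library was well above the highest untrained one. The log2 fold change was 0.69 (SE 0.05, adjusted p = 3.79e-07, limma), a fold of 1.62. In CA3 Shank1 had 3726 and 2747 in untrained and 7105, 6077 and 4946 in trained mice. These groups did not overlap either, and their difference, the widest of the 10 genes in any subregion at 0.90 (SE 0.19), did not pass the test (adjusted p = 0.12), with trained libraries spread from 4946 to 7105. In DG the values were 4422 and 4626 in untrained and 4469, 4856 and 4090 in trained mice, which overlapped, with a log2 fold change of -0.02 (SE 0.07, adjusted p = 0.911).

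Shank3 (chromosome 15, 89499623 to 89560261), whose loss of one copy causes Phelan-McDermid syndrome in people, went with Shank1. It had 1364, 1316 and 1587 in untrained and 2625, 2564 and 2367 in trained CA1. The log2 fold change was 0.83 (SE 0.07, adjusted p = 1.68e-06, limma), a fold of 1.77. In CA3 it had 1626 and 1212 in untrained and 2676, 2434 and 1936 in trained mice. All trained values were again above all untrained ones, with 0.73 (SE 0.17) and an adjusted p of 0.127. In DG it had 1698 and 1967 in untrained and 1861, 1958 and 1698 in trained mice, and the groups covered nearly the same range.

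Shank2 (chromosome 7, 144001928 to 144424494) moved less than its paralogs. It had 1659, 1564 and 1690 in untrained and 1872, 1847 and 1894 in trained CA1. The groups did not overlap, and the change of 0.19 (SE 0.05) passed narrowly at an adjusted p of 0.0442 (limma). Without 1 of the CA1 libraries the adjusted p of Shank2 lay between 0.0168 and 0.183 and passed only when untrained replicate 3 was left out. In CA3 the values were 1597 and 1491 against 1869, 1876 and 1726, again apart, with 0.24 (SE 0.08, adjusted p = 0.166). In DG trained libraries (1576, 1673 and 1550) overlapped untrained ones (1854 and 1642).

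Homer proteins are small adaptors that form tetramers through a coiled coil. Homer3 (chromosome 8, 70282827 to 70294361) had 211, 209 and 273 in untrained and 407, 420 and 426 in trained CA1. The 3 trained libraries lay close together and above all untrained ones. Its log2 fold change of 0.86 (SE 0.11, adjusted p = 6.64e-05, limma), a fold of 1.81, was the highest of the 10 genes in CA1. In CA3 it had 256 and 356 in untrained and 452, 510 and 522 in trained mice, which were also apart, with 0.70 (SE 0.14) at an adjusted p of 0.0526. In DG it had 314 and 444 in untrained and 485, 540 and 450 in trained mice. The lowest trained value was just above the higher untrained one, and the difference of 0.39 (SE 0.13) had an adjusted p of 0.126. Without untrained DG replicate 3, the higher of the pair, Homer3 passed in DG with 0.64 and an adjusted p of 0.00172, and without replicate 1 it had 0.14 and 0.533. Each of these fits holds 1 untrained library, assumed to vary like the trained ones, and without replicate 3 calls over all genes rose from 473 of 13935 to 1583 of 13844.

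Homer2 (chromosome 7, 81600481 to 81707527) was the one scaffold gene that fell. It had 1725, 1792 and 2322 in untrained and 1251, 1323 and 1394 in trained CA1. Every trained library was below every untrained one, and untrained replicate 3 stood above the other two. The change was -0.54 on the log2 scale (SE 0.10, adjusted p = 0.0186, limma). In CA3 it had 1266 and 1087 in untrained and 1073, 1128 and 1033 in trained mice, with -0.12 (SE 0.09, adjusted p = 0.526). In DG it had 1343 and 1267 against 1168, 1055 and 1175, lower in every trained library, and the change of -0.21 (SE 0.08) had an adjusted p of 0.139.

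Homer1, the paralog that is no member of the set and whose short form is induced by activity, had 1453, 1396 and 1542 in untrained and 918, 1060 and 940 in trained CA1. Its change of -0.59 (SE 0.07, adjusted p = 3.17e-05, limma) had the same direction as that of Homer2. The gene-level values do not separate the short and long Homer1 forms. In CA3 (0.971-fold) and in DG (1.05-fold) the groups differed by less than the test could show, with adjusted p of 0.854 and 0.656.

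Markers of the pyramidal subregions moved with the Homer genes in CA1. The CA1 markers Wfs1, Fibcd1, Mpped1 and Pou3f1 were each lower in every trained CA1 library than in every untrained one, with a median log2 fold change of -0.94, and Fibcd1 passed the test (-1.32, adjusted p = 0.0139). Their summed level was 3079 to 4998 in untrained CA1, 1528 to 1943 in trained CA1, and 876 to 2010 in the CA3 and DG libraries. Of the CA3 markers Bok, Iyd, Cpne4 and Grik4, 3 passed as higher in trained CA1, Bok with 148, 210 and 183 in untrained and 334, 369 and 403 in trained libraries. Their sum was 1387 to 1517 in untrained and 1999 to 2122 in trained CA1, against 1814 to 2777 in CA3. Within CA1, Homer2 and Homer1 were thus high in the untrained libraries, where CA1 markers were high. Homer3 was higher in the trained CA1 libraries, where CA3 markers were higher. Across subregions Homer3 did not follow the CA3 markers closely. It had 256 and 356 in untrained CA3, with sums of 1814 to 2378, and 407 to 426 in trained CA1. No marker of either list was at 0 in all libraries of a group, and the part of the subregion markers in the Homer results was not tested.

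**Figure D2:**
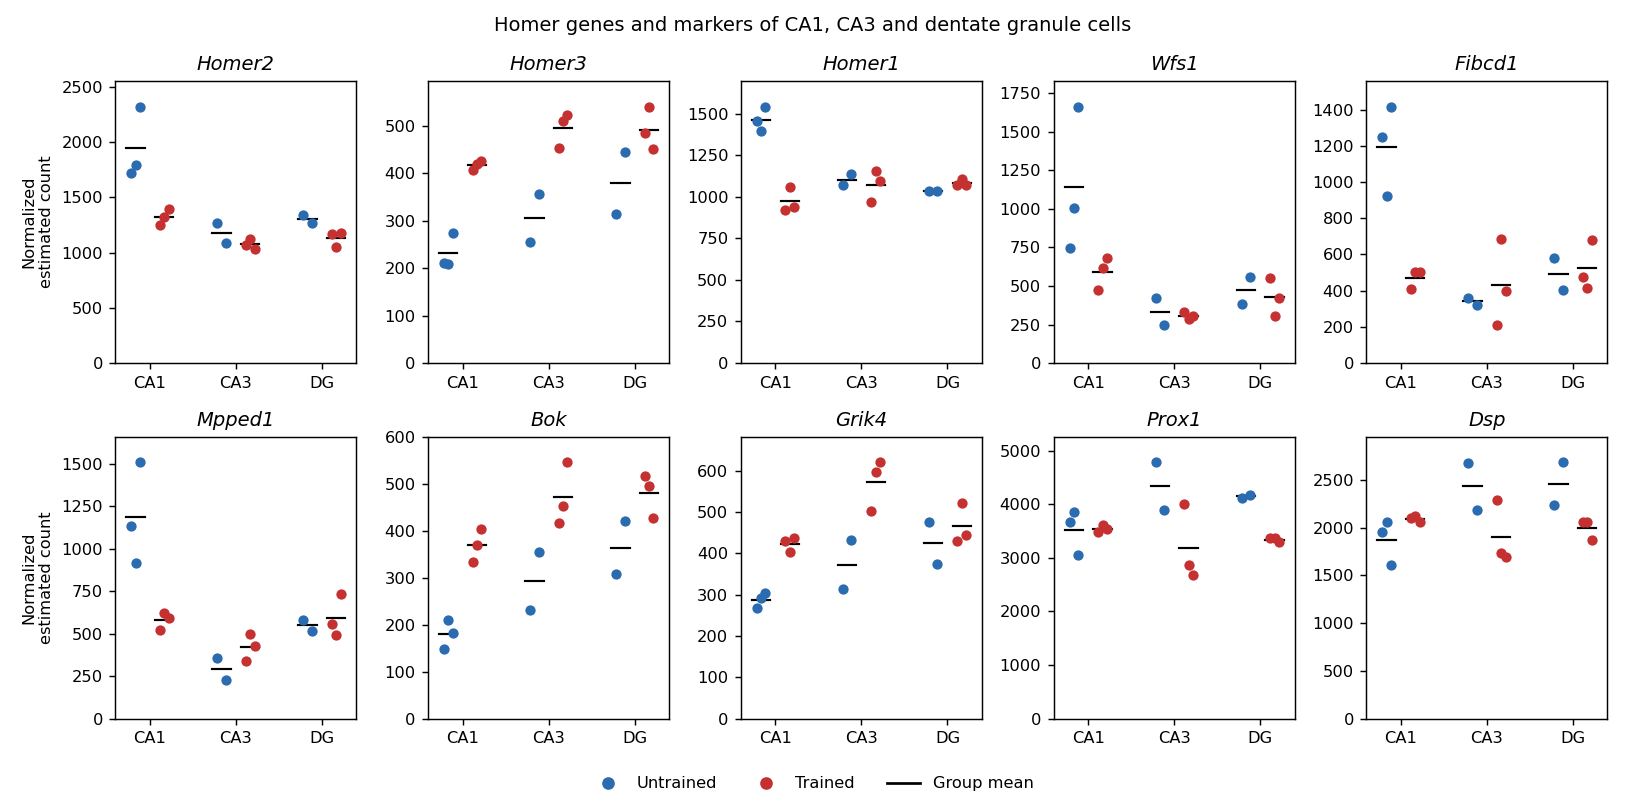
Normalized estimated count (vertical axis, from 0) of Homer2, Homer3 and Homer1 beside the CA1 markers Wfs1, Fibcd1 and Mpped1, the CA3 markers Bok and Grik4 and the granule cell markers Prox1 and Dsp, for each library by subregion, blue untrained, red trained, black bars at group means. The mean of untrained CA1 stands above those of the other 5 groups in Homer2, Homer1 and the CA1 markers and below them in Homer3, Bok and Grik4, whereas Prox1 and Dsp are high in every group.

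The SAPAP genes fell into a pair that rose and a pair that did not. Dlgap3 (chromosome 4, 127169204 to 127237022), whose loss causes excessive grooming in mice, had 1101, 990 and 1290 in untrained and 1505, 1454 and 1408 in trained CA1. All trained values were higher, and the change was 0.38 (SE 0.08, adjusted p = 0.0093, limma). In CA3 it had 1126 and 895 against 1596, 1393 and 1294, also apart, with 0.50 (SE 0.12, adjusted p = 0.0856). In DG it had 1273 and 1289 against 1269, 1366 and 1300, which overlapped.

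Dlgap4 (chromosome 2, 156613705 to 156764363) was the only scaffold gene past the threshold in CA3. There it had 1358 and 1207 in untrained and 1725, 1673 and 1674 in trained mice. The trained libraries were close together and all higher, with 0.40 (SE 0.08, adjusted p = 0.0452, limma). In CA1 it had 1319, 1234 and 1577 against 1743, 1679 and 1645, a change of 0.30 (SE 0.07, adjusted p = 0.025, limma). In DG it had 1538 and 1727 against 1582, 1675 and 1449, without a shift that could be called (-0.06, adjusted p = 0.74).

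Dlgap1 (chromosome 17, 69969073 to 70821413) and Dlgap2 (chromosome 8, 14095865 to 14847680) showed no call in any subregion. Dlgap1, the most abundant of the family, ranged from 5883 to 7048 over all 16 libraries. Its log2 fold changes were -0.04 (SE 0.04) in CA1, 0.00 in CA3 and -0.13 (SE 0.05, adjusted p = 0.169) in DG, where the trained libraries, at 6323, 6293 and 6331, were all below the untrained ones at 6797 and 7048. Dlgap2 ranged from 989 to 1230 with overlapping groups in all 3 subregions.

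Dlg4 (chromosome 11, 70016942 to 70047522), the membrane end of the scaffold chain, had 5815, 5529 and 6106 in untrained and 5709, 5969 and 6336 in trained CA1. The groups overlapped, with a log2 fold change of 0.05 (SE 0.05, adjusted p = 0.676). In CA3 it had 5381 and 4982 against 5535, 5333 and 5613, and in DG 5875 and 5846 against 5303, 5650 and 5921. Its changes there were 0.09 (SE 0.07, adjusted p = 0.598) and -0.06 (SE 0.06, adjusted p = 0.614). The paralogs of Dlg4 in CA1 also missed the threshold, with 0.15 for Dlg1 (adjusted p = 0.229), 0.14 for Dlg2 (0.102) and 0.00 for Dlg3 (0.982).

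**Figure D3:**
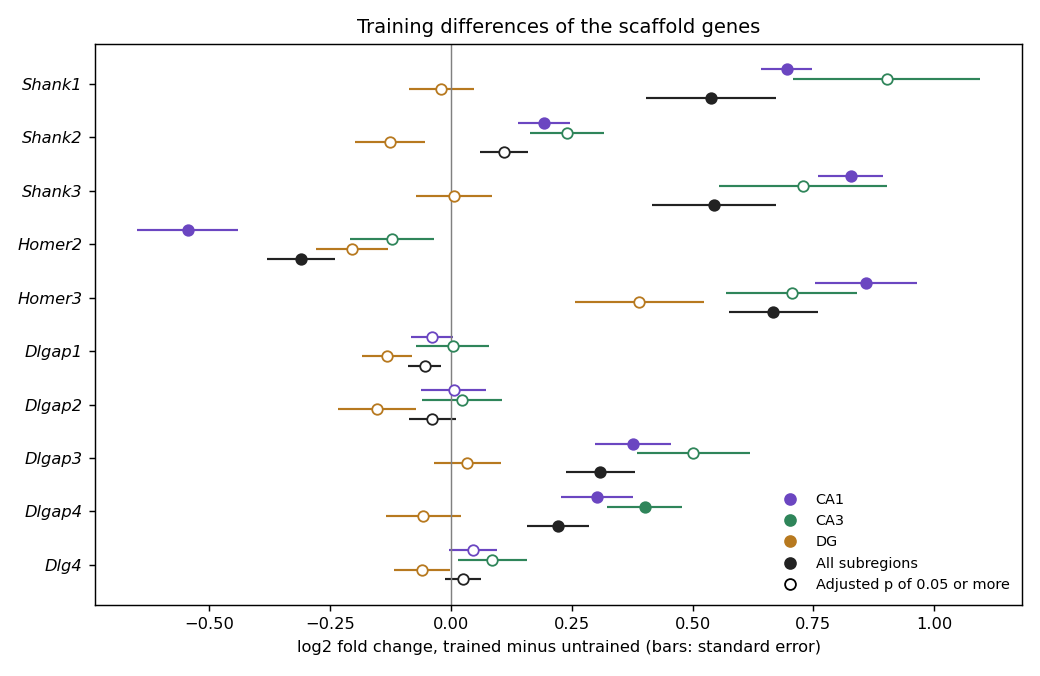
Log2 fold change of trained against untrained mice with its standard error (horizontal axis) for the 10 scaffold genes in CA1, CA3, DG and all subregions together, filled where the adjusted p is under 0.05. Shank1, Shank3, Dlgap3 and Dlgap4 lie right of 0 in CA1 and CA3 and near 0 in DG, and Homer2 lies left of 0.

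In CA3, 6 of the 10 genes (Shank1, Shank2, Shank3, Homer3, Dlgap3 and Dlgap4) were higher in every trained library than in every untrained one, against 17.2% of all genes tested there. The call count in CA3 depended on how the spread was estimated. When all 16 libraries shared one estimate, 5 passed (Shank1, Shank3, Homer3, Dlgap3 and Dlgap4, adjusted p from 0.01 to 0.0196, limma), with fold changes as before. Calls over all genes rose with them, from 118 of 13848 to 413 of 14673. Without untrained CA3 replicate 1, which had both kinds of sex-linked transcripts, none of the 10 passed in CA3, although Shank1 had a log2 fold change of 1.12 and Shank3 one of 0.94. None passed without trained replicate 2 either, 2 passed without trained replicate 1 (Homer3 and Dlgap4) or 3 (Shank1 and Shank3), and without untrained replicate 2 Homer3 passed in place of Dlgap4. Over all genes 17 were called without untrained replicate 1 and 26 without replicate 2, where the lone untrained library was assumed to vary like the trained ones, and 680, 7 and 128 without trained replicates 1, 2 and 3. Markers of other cells also moved in CA3. Of the 4 choroid plexus markers 2 were called lower in trained CA3, Ttr (-3.29, adjusted p = 7.26e-06, limma) and Clic6 (-2.55, 0.0343), and their sum was 798 to 1104 in untrained and 235 to 311 in trained libraries. Of the 5 interneuron markers Sst was called higher (0.82, adjusted p = 0.0101, limma), the others lay between -0.04 and 0.50, and the sums overlapped (3085 to 3521 against 3247 to 3770). The 5 granule cell markers were between -0.59 and -0.11, none of them called, with sums of 8535 to 10396 in untrained and 6071 to 8762 in trained CA3. Aqp4 was lower in every trained library (-0.46, adjusted p = 0.0678, limma), and Slc17a7 of excitatory neurons was higher in every trained library (0.37, 0.109). The 4 CA3 markers were between -0.02 and 0.71, none of them called, with Bok and Grik4 higher in every trained library. The part of these markers in the CA3 differences was not tested. In DG, 0 of the 10 passed by limma and 3 had an unadjusted p under 0.05 (Homer3 higher, Homer2 and Dlgap1 lower), against 19.5% of all genes tested.

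When the 3 subregions were analysed jointly, with their own mean levels allowed for, 6 of the 10 passed and 5 of them were higher, against 10.3% of 14673 genes (6.28% higher, 4.06% lower). The log2 fold changes were 0.67 (SE 0.09, adjusted p = 0.000305, limma) for Homer3, 0.54 for both Shank1 (adjusted p = 0.0247) and Shank3 (0.0184), 0.31 for Dlgap3 (0.00997) and 0.22 for Dlgap4 (0.0302). Homer2 had -0.31 (SE 0.07, adjusted p = 0.00782, limma). Libraries with the title of the same animal were taken as independent in this fit. With the animal as a random effect, at a correlation within animals of -0.0355, 1758 of all 14673 genes were called. The same 6 passed without untrained CA3 replicate 1 and trained DG replicate 3, with adjusted p from 0.00036 to 0.0381. Without all 5 libraries that held both kinds of sex-linked transcripts Homer3 alone passed (0.57, adjusted p = 0.0148, limma), among 323 of 14460 genes, and both Shank1 and Shank3 had 0.59, with adjusted p of 0.18 and 0.138. With a score of sex-linked transcripts as a covariate, 0 of the 10 and 0 of all 14673 genes passed by limma, while 1702 genes had an unadjusted p under 0.05. In that fit the direction of each of the 6 stayed, with 0.86 for Homer3 (adjusted p = 0.137) and -0.33 for Homer2 (0.49). Without all libraries of untrained animal 1, Homer3 alone passed. It passed together with Homer2 without trained animal 2, and with Homer2 and Dlgap3 without untrained animal 2 or trained animal 1. Calls over all genes went from 1517 to 456 without untrained animal 1, 554 without trained animal 2, 900 without untrained animal 2 and 1023 without trained animal 1.

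Whether training moved a gene more in one subregion than in another was tested by interaction terms of a single model of all 6 groups. Shank3 changed more in CA1 than in DG, by 0.82 on the log2 scale (SE 0.19, adjusted p = 0.0402, limma), and it was the only 1 of the 10 past the threshold, against 2.75% of all genes. The same difference was 0.71 for Shank1 (SE 0.20, adjusted p = 0.0822), 0.32 for Shank2 (0.0604), 0.36 for Dlgap4 (0.0915) and 0.34 for Dlgap3 (0.188). Homer3 had 0.47 (0.222) and Homer2 -0.34 (0.174). By their titles, libraries of the same animal can be paired across subregions. The libraries of untrained animal 1 had Xist of 26.1 in CA1, 25.5 in DG and 10587 in CA3, so a block may not hold 1 animal alone. With the animal as a block both Shank1 (0.63, adjusted p = 0.0111, limma) and Shank3 (0.72, 0.00391) passed, among 282 of all 14673 genes against 404 without the block. Between CA3 and DG none of the 10 passed (background 0.164%), with 0.92 for Shank1 (SE 0.21, adjusted p = 0.133), which passed with the animal block (0.79, 0.0232). Between CA1 and CA3 none passed with or without the block (background 0.0273%), and the widest difference was that of Homer2, -0.42 (SE 0.13, adjusted p = 0.44).

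For Shank3 the difference between CA1 and DG lay between 0.77 and 0.90 when 1 animal was left out, and its adjusted p between 0.0275 and 0.129. It missed the threshold without untrained animal 1 or 3 and without trained animal 1 or 2. Shank2 passed without untrained animal 3 (0.43, adjusted p = 0.0317, limma), and Shank1 without trained animal 3, in CA1 against DG (0.70, 0.0424) and in CA3 against DG (adjusted p = 0.0183). Shank3 stayed past the threshold without untrained CA3 replicate 1 and trained DG replicate 3, at 0.76 and an adjusted p of 0.0495, and without all 5 libraries that held both kinds of sex-linked transcripts, at 0.79 and 0.031, where Shank1 also passed (0.69, 0.0276). The libraries with many genes at 0 were the trained ones in CA1 and the untrained ones in DG, so the split in that number and the difference in training effect between CA1 and DG cannot be told apart. Over all subregions a term for it left 6 of the 10 called, and 1794 of 14673 genes in place of 1517, with 0.42 for Shank1 (adjusted p = 0.00282, limma) and 0.43 for Shank3 (0.00016).

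The level in the 3 subregions, averaged over both training groups, differed for the Homer genes. Homer2 was 1.42-fold higher in CA1 than in CA3 (log2 0.51, SE 0.07, adjusted p = 0.000451, limma) and 1.31-fold higher than in DG (0.39, SE 0.07, adjusted p = 0.00242). Homer3 was lower in CA1 than in DG, by -0.46 (SE 0.10, adjusted p = 0.0138, limma), and by -0.32 than in CA3, which missed the threshold (adjusted p = 0.181) and passed with the animal block (-0.38, 0.00744) and without untrained CA3 replicate 1 and trained DG replicate 3 (-0.44, 0.0388). Over all genes, 0.988% passed between CA1 and CA3 and 4.05% between CA1 and DG. Homer2 passed both comparisons without any 1 of the 6 animals. Without the 5 libraries that held both kinds of sex-linked transcripts it passed against CA3 (0.55, adjusted p = 0.0346, limma) and not against DG (0.41, 0.0629), and Homer3 missed the threshold against DG (-0.49, 0.105). Homer3 against DG was lost without any 1 of the 3 trained animals, and against CA3 it passed without untrained animal 1 (-0.41, adjusted p = 0.0257) or 3 (-0.38, 0.014). Homer2 was highest in untrained CA1, where its mean of 1946 ± 327 (SD, n = 3) stood above 1176 ± 127 (n = 2) in untrained CA3 and 1305 ± 54.2 (n = 2) in untrained DG, with trained means of 1323 ± 71.9, 1078 ± 47.5 and 1133 ± 67.7 (n = 3 each).

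The other 8 scaffold genes showed no call between subregions. Dlg4 was 1.11-fold higher in CA1 than in CA3, with an adjusted p of 0.1. Shank1 was 1.15-fold higher in CA1 than in DG (adjusted p = 0.301) and passed only with the animal as a block (log2 0.24, adjusted p = 0.0169, limma). Between CA3 and DG none of the 10 passed by limma, 1 had an unadjusted p under 0.05 (Dlg4, -0.11), against 6.86% of all genes, and 1 of all 14673 genes passed (0.00682%). Of the 5 granule cell markers none separated CA1 or CA3 from DG. The pyramidal markers separated CA1 in part. Of the 4 CA1 markers, 3 were called higher in CA1 than in CA3 and 0 were called between CA1 and DG. Of the 4 CA3 markers, 3 were called lower in CA1 than in DG and 2 lower than in CA3. No marker of either list was called between CA3 and DG. The summed CA1 markers of trained CA1 (1528 to 1943) lay within the range of the CA3 and DG libraries (876 to 2010).

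Of the 6 genes that rose in CA1, 5 had transcripts rich in GC. The GC content of the longest coding transcript was 61.4% in Shank1, 62.4% in Shank3, 60.2% in Homer3, 63.9% in Dlgap3 and 59.4% in Dlgap4, and between 44.4% (Homer2) and 55.3% (Dlgap2) in the other 5, among them Shank2, which also rose, with 55.0%. The 5 genes richest in GC were the 5 with the highest log2 fold changes in CA1. Across the 10 genes the Pearson correlation of GC content with the change was 0.849 in CA1, 0.851 in CA3 and 0.542 in DG. Across all genes with a known transcript it was 0.11, 0.236 and 0.042. These correlations run over genes measured in the same libraries and carry no p-value.

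Of the 861 genes tested in CA1 with at least 59.4% GC, 95 were called higher, and their median log2 fold change was 0.14. In CA1 479 of all 13588 genes were called higher. In CA3 6.05% of GC-rich genes were called higher (102 of all 13848 genes), with a median of 0.21, in DG 2.61%, with a median of 0.04, and over all subregions 21.4%, against 6.28% of all genes. When the dependence of each library on transcript GC content and length was taken out, 6 of the 10 still passed in CA1, where 887 of 13438 genes did, with 0.56 for Shank1 (adjusted p = 7.6e-08, limma), 0.69 for Shank3 (2.9e-08), 0.74 for Homer3 (5.09e-05), 0.22 for both Dlgap3 (0.0226) and Dlgap4 (0.021) and 0.18 for Shank2 (0.0372). Homer2 had -0.51 and no longer passed (adjusted p = 0.0888). In CA3 none passed after this step, with 0.71 for Shank1 and 0.25 for Dlgap4, and calls over all genes fell from 118 of 13848 to 23 of 13689. Over all subregions 5 of the 10 passed, and 1401 of 14484 genes.

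**Figure D4:**
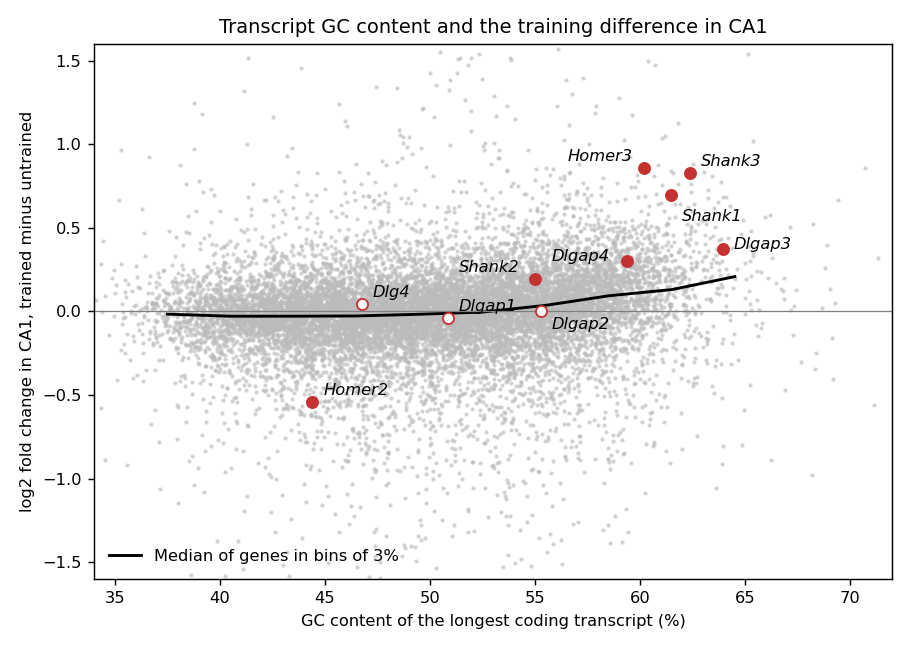
Log2 fold change of trained against untrained CA1 (vertical axis, drawn from -1.6 to 1.6) against the GC content of the longest coding transcript in percent (horizontal axis, drawn from 34 to 72%), grey for all genes and red for the 10 scaffold genes, filled where the adjusted p is under 0.05, with the median of all genes in bins of 3% as a black line. The line rises at high GC content, and Shank1, Shank3 and Homer3 lie above it by more than Dlgap3 and Dlgap4.

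Levels of the Shank genes, Dlgap3 and Dlgap4 followed each other across the 16 libraries, with Pearson correlations of log2 values from 0.712 (Shank2 and Dlgap4) to 0.953. The highest of any pair of the 10 genes was that between Shank1 and Shank3, followed by 0.929 between Shank3 and Dlgap3 and 0.926 between Dlgap3 and Dlgap4. Homer3 had 0.722 with Dlgap4. Among other pairs the correlation was 0.033 between Dlgap1 and Shank3, -0.053 between Dlg4 and Homer3 and -0.761, the lowest, between Homer2 and Homer3. These points share libraries, training groups and GC-rich transcripts. Among all 14673 genes compared, the 3 most like Shank3 were Cic (0.964), Panx2 (0.957) and Plec (0.956). Those most like Homer3 were Ywhag (0.966), Nectin3 (0.964) and Dnm1 (0.962), and those most like Dlgap3 were Agap2 (0.952), Ehmt2 (0.943) and Cep170b (0.939). Dlg4 was followed less closely, with 0.827 for Dgkz, the gene most like it.

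A list of 28 genes whose products bind these scaffolds was examined beside them. In CA1, 5 were called higher and 2 lower, with a median log2 fold change of 0.03, against 3.53% higher and 1.70% lower and a median of 0.00 over all genes. The 3 with the smallest p were Homer1 (above), Dynll2 and Begain. Dynll2, a dynein light chain that binds the SAPAPs, had 2094, 2129 and 2242 in untrained and 3200, 2728 and 2683 in trained CA1. Its trained libraries were all higher, with 0.41 (SE 0.06, adjusted p = 0.000591, limma). Begain, which binds PSD-95, had 306, 272 and 340 in untrained and 417, 436 and 445 in trained CA1. These groups were also apart, with 0.50 (SE 0.09, adjusted p = 0.00303, limma).

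Of the ligands of Homer proteins, Itpr1, the inositol trisphosphate receptor, fell in CA1 by 0.31 (SE 0.07, adjusted p = 0.0223, limma), while Grm5, a metabotropic glutamate receptor, was not called. The other 3 of the 5 called higher in CA1 were Tanc1, Ppp1r9b and Dbn1, with 0.19 to 0.25. None of the 6 Shank partners (Cttn, Abi1, Baiap2, Sharpin, Lzts3 and Frmpd4) and none of the 5 regulators of small G proteins was called in CA1. Itpr1, Tanc1, Ppp1r9b and Dbn1 lie outside the 3 with the smallest p and were chosen after their values were seen.

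In CA3 only Begain of the 28 partners passed, against 0.852% of all genes, with 305 and 286 against 415, 440 and 394 (log2 0.49, SE 0.09, adjusted p = 0.0371, limma), and the next were Dynll2 (0.43, 0.0702) and Iqsec1 (0.25, 0.135). In DG 2 of the 28 passed, against 3.39% of all genes. Dynll2 was higher in every trained library, with 1660 and 1796 against 2474, 2594 and 2491. Its change of 0.54 (SE 0.06, adjusted p = 0.000346, limma) stood beside that of Magi2, a scaffold of the MAGUK type, which was lower (-0.24, 0.0497), and that of Dynll1 (0.31, 0.0598). In DG the 3 endothelial markers were lower in every trained library (sums of 411 to 504 against 253 to 267), with Flt1 called (-0.94, adjusted p = 0.00142, limma), and the granule cell markers summed to 8790 to 9252 against 7200 to 7663, with Prox1 called (-0.31, 0.00965). The part of these markers in the DG values was not tested. Over all subregions 4 of the 28 partners were called, all higher, beside 10.3% of all genes called (6.28% higher). They were Dynll2 (0.46, adjusted p = 1.52e-05, limma), Begain (0.37, 0.00108), Dynll1 (0.22, 0.00551) and Dlg2 (0.12, 0.0277). For the difference of the training effect between CA1 and DG, Homer1 (-0.66, SE 0.11, adjusted p = 0.00293, limma) and Itpr1 (-0.44, 0.0331) passed, against 2.75% of all genes, followed by Dbn1 (0.33, 0.0758).

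**Figure D5:**
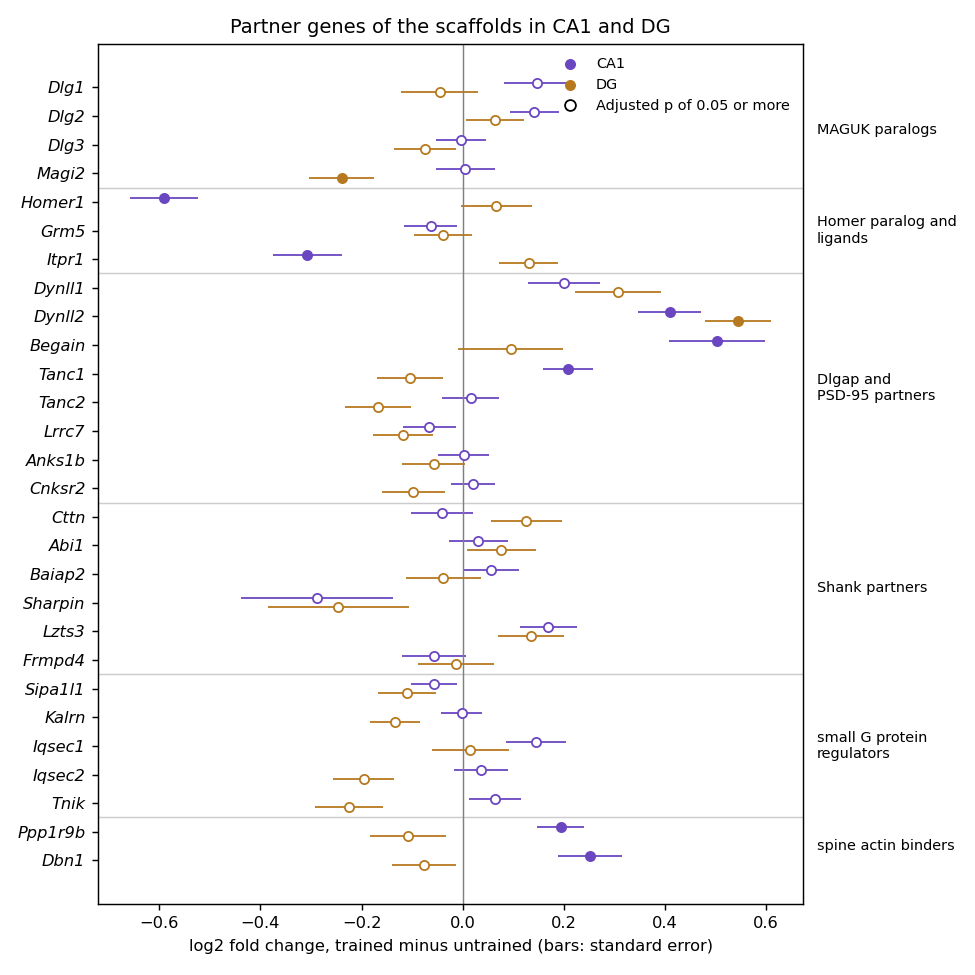
Log2 fold change of trained against untrained mice with its standard error (horizontal axis) for 28 genes whose products bind the scaffolds, grouped by role, purple for CA1 and ochre for DG, filled where the adjusted p is under 0.05. Dynll2 is right of 0 in both subregions, Homer1 and Itpr1 are left of 0 in CA1, and most partners lie within 0.3 of 0.

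Markers of other cell types in the dissected tissue moved with training in CA1 in part. The summed level of the 6 oligodendrocyte markers was 16374 to 26072 in untrained and 15409 to 17141 in trained CA1, and that of the 5 astrocyte markers was 8410 to 8691 and 8027 to 8313, lower in every trained library, with Aqp4 called (-0.35, adjusted p = 0.00149, limma) and the other 4 between -0.03 and 0.09. The 4 microglia markers overlapped, at 1358 to 1627 and 1376 to 1397. The 3 endothelial markers summed to 476 to 479 in untrained and 521 to 560 in trained CA1, and none of them was called. Choroid plexus markers summed to 997 to 1151 in untrained and 305 to 2364 in trained CA1, where Ttr stood at 2008 in trained replicate 1 and at 63.0 and 62.2 in replicates 2 and 3. The sums of the 5 interneuron (3296 to 3566 against 3332 to 3522) and 5 granule cell markers (6840 to 8356 against 7768 to 7937) overlapped, with Lct of the latter called lower (-0.20, adjusted p = 0.0469, limma). The 3 excitatory neuron markers Slc17a7, Neurod6 and Camk2a summed to 49285 to 54430 in untrained and 56563 to 59991 in trained CA1, and 2 of the 3 were called higher (Slc17a7 0.29 and Camk2a 0.18). The part of these shifts in the scaffold results was not tested.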

How the data were processed

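Bulk RNA-seq of mouse DG, CA3 and CA1 was analysed, with 9 libraries from trained and 7 from untrained mice. RNA was depleted of ribosomal RNA before library preparation. Per the labels and the paper's methods, the authors trimmed reads with Trim Galore, aligned them with STAR to the mouse genome (GRCm38 in the submitters' processing notes), quantified genes with Salmon and used DESeq2 for comparisons. The deposited signal is a normalized estimated count per gene. Values are not whole, whole reads could not be recovered, and the sums per library lie between 7607326 and 7984931. Median-of-ratios factors computed from the deposited values were 1 in all 16 libraries. The depth behind them is not given in the sources used here, so no counting intervals are printed. In a pair of untrained samples, one of DG and one of CA3, sequencing failed the study's quality control.

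Values were compared with limma 3.58.1 in R 4.3.3 on log2(value + 2). Variances were moderated robustly along their trend on mean level, tests were two-sided, and p-values were adjusted by Benjamini-Hochberg over all genes tested. Fold changes on this scale understate changes of low genes. A gene was tested if 3 libraries (CA1) or 2 libraries (other comparisons) reached a value of 10. Training was tested within each subregion, over all subregions with the subregion as a term, and as interactions in one fit of 6 groups. The procedure was tested on simulated data. By the labels each library holds 1 animal's subregion, so p-values measure the spread between libraries so labelled, and libraries of an animal were taken as independent unless an animal block is named. That trained and untrained libraries share a replicate number pairs nothing, as the labels give it only as a name. Libraries of the same animal pair across subregions by their titles, and their deviations from group means correlated between -0.108 and 0.0921.

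Positions, transcript lengths and GC content came from the GENCODE annotation of GRCm38, in which 24464 of 24972 symbols (98.0%) were found. Cell type markers and partner genes were fixed lists, and of the partners the 3 with the smallest p per comparison were to be named, with every scaffold gene and the paralogs Homer1, Dlg1, Dlg2 and Dlg3. The 3 most alike genes were sought for Shank3, Homer3, Dlgap3 and Dlg4. Some partner and alike genes are not reported here. Scaffold genes and lists were chosen with earlier results of these data known. Promoter windows are RefSeq's. Alternatives were pseudocounts of 0.5 and 8, no filter or a value of 10 in every library, rescaling by median of ratios or upper quartile, estimation that is not robust, removal of GC and length trends, all libraries in one fit, replicate and animal blocks, an animal random effect, a sex-linked covariate, a covariate marking the libraries with more genes at 0, and each replicate or animal left out. Leaving out untrained CA3 replicate 1 and trained DG replicate 3 together, and leaving out all 5 libraries with X- and Y-linked transcripts, were added after seeing the data.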

Additional observations from a re-analysis of the deposited data

Results flagged for a closer look

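The training difference of Shank3 differed between subregions by the interaction test. It was higher in CA1 than in DG by 0.82 on the log2 scale (SE 0.19, adjusted p = 0.0402, limma), with all 3 trained CA1 libraries above all 3 untrained ones and overlapping groups in DG. As given above, this call was lost when some single animals were left out. The difference also cannot be told apart from the split in the number of genes at 0. No scaffold gene had a library far from the others among the 9 trained or the 7 untrained libraries, in 20 groups examined.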

How the results depend on the processing

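The count of scaffold genes called in CA1 (7) stayed within 1.5 times of that number under every alternative that kept all libraries, and lay between 3 and 7 when a replicate was left out. In CA3 the count was 1, where 118 of all 13848 genes were called. It became 2 with no filter (143 of 22856 genes) and when all libraries had to reach 10 (127 of 12763). It was also 2 with median-of-ratios factors computed again within CA3 (125 of 13850). It became 0 with upper-quartile rescaling (105 of 13855), without robust estimation (56 of 13848) and with GC and length trends removed (23 of 13689). It became 5 when all 16 libraries shared one fit (413 of 14673). It lay between 0 and 2 with a replicate left out. In DG the count was 0 under all alternatives with all libraries, and 0 to 1 with a replicate left out. Over all subregions the count of 6 became 0 with the sex-linked covariate and lay between 1 and 6 with an animal left out. Without the 5 libraries with X- and Y-linked transcripts it was 1, where 323 of 14460 genes were called. Trained CA1 and untrained CA3 then keep 1 library each, which is assumed to vary like the other groups, so counts between subregions are not given for that choice. With 1 animal left out, the count between CA1 and DG lay between 1 and 2, that between CA1 and CA3 also between 1 and 2, and that between CA3 and DG at 0. Where the animal left out was untrained, CA3 or DG kept 1 untrained library. For the training effect in CA1 against DG the count of 1 became 3 with no filter, where calls over all genes rose from 404 of 14673 to 2039 of 23503, and 2 without robust estimation or with GC and length trends removed, and lay between 0 and 2 with an animal left out. For the other effects the counts with an animal left out were 0 (CA1 against CA3) and 0 to 1 (CA3 against DG). The cause of these moves was not tested.

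With the replicate number as a block, CA3 had 6 calls and 1160 of all 13848 genes did, against 118 without it, although same-numbered trained and untrained libraries correlated only between -0.18 and 0.119 in their deviations and the number is no pairing. With the animal as a replicate block, 2 scaffold genes were called between CA1 and CA3, where 207 of all 14673 genes were. For the effect in CA1 against DG 2 were called (282 of all genes), and for that in CA3 against DG 1 was (5 of all genes). The block moved no other count by over 1.5 times.

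Single log2 fold changes changed sign only where the value was near 0. With GC and length trends removed Dlgap1 in CA1 was 0.005, Dlgap2 in CA3 -0.024 and Shank1 in DG 0.008. With upper-quartile rescaling Dlgap2 in CA1 was -0.01 and Dlgap1 in CA3 -0.012, and with the replicate block Shank3 in DG was -0.04. With a replicate left out the ranges crossed 0 for Dlgap2 in CA1 (-0.034 to 0.075) and CA3 (-0.084 to 0.128), Dlgap1 in CA3 (-0.083 to 0.09), Shank1 (-0.081 to 0.043), Shank3 (-0.099 to 0.112) and Dlgap4 (-0.141 to 0.026) in DG, and Dlgap2 (-0.092 to 0.013) and Dlg4 (-0.012 to 0.049) over all subregions. Of all single-gene results under alternatives, 925 kept direction and side of the threshold, 64 fell below it, 34 passed it and 21 changed sign.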
